A study of Rattus norvegicus with 96 samples.

Results

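The dopamine neuron genes Th, Slc6a3, Slc18a2, Ddc, Ret and Nr4a2 were chosen by name, and all 6 were found among the 17637 genes of the deposited count table. RNA-seq had been made from 3 brain regions of 32 F1 rats, 16 per sex, born to the inbred strains F344 and BN in both cross directions. The regions were the ventral tegmental area (VTA), where midbrain dopamine neurons have their cell bodies, and the core and shell of the nucleus accumbens (NAc), which receives their axons. Rats were injected once a day for 4 days with nicotine (NIC, 0.4 mg/kg) or with saline (SAL, 1.0 ml/kg), left for about 2 weeks, and harvested on day 17 without a further injection. Each sex and region therefore had a NIC and a SAL group of 8 rats, the 2 kinds of cross were spread over the groups, and tissue was dissected by hand as a whole region, so that all its cell types were sequenced together. Fewer cells of a type and less RNA per cell cannot be told apart in such samples.

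The 94 libraries that the study displays were analysed, 31 of VTA, 31 of NAc core and 32 of NAc shell, and a single rat was missing from each of the groups male VTA SAL and female NAc core NIC. The total count of a library lay between 15868529 and 27736905. Levels are CPM, the count of a gene relative to the total of its library after scaling with edgeR's TMM factors, with SD over rats, and changes are log2 fold changes with their standard error (SE). Levels were not divided by gene length, so levels are compared between libraries and not between genes. The adjusted p is Benjamini-Hochberg's over the 16879 genes tested, and 0.05 was the threshold. All 6 members passed the filter on low counts, and did so on the NAc libraries alone. The prep batch that the labels give each library was nearly tied to sex and largely to treatment: 1 of 10 batches held both sexes, and in male VTA a single batch, with 2 NIC and 2 SAL rats, held both treatments.

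Some libraries stood apart and touch the results. Female VTA nicotine 2 was labelled VTA but held 18.0 CPM of Th, against 316 to 895 CPM in the other 30 VTA libraries. Female NAc core nicotine 1, which the study does not display and which was left out here, was labelled NAc core but held 331 CPM of Th, against at most 3.87 CPM in the other NAc core libraries. The male NAc core and NAc shell libraries of saline 1 were low in 7 genes of striatal projection neurons, with sums of 327 and 263 CPM against group medians of 2196 and 2492 CPM, and had no read of Slc18a2. Several results are therefore also given without them.

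Dopamine is made from tyrosine in a pair of steps, the first by tyrosine hydroxylase (Th) and the second by aromatic amino acid decarboxylase (Ddc). The vesicular monoamine transporter VMAT2 (Slc18a2) loads it into vesicles, and the dopamine transporter (Slc6a3) takes it back up after release. Ret is the signalling receptor of the GDNF family of growth factors, and Nr4a2 (Nurr1) is a nuclear receptor that midbrain dopamine neurons need to form and to keep their transmitter identity. Nr4a2 is also an immediate early gene in many other neurons. Nicotine acts on acetylcholine receptors that these neurons carry, and their projection from VTA to NAc is a main pathway of drug reward and sensitization.

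The bases upstream of the start sites are shown because 5 of the members varied together across VTA libraries, as described further on. RefSeq promoters of the GRCr8 assembly matched all 6 members by symbol, and the 250 bases before each start were searched on both strands for the cyclic AMP response element TGACGTCA, which reads the same on both strands, and for AAAGGTCA (or TGACCTTT on the other strand), to which Nr4a receptors can bind as monomers. The 3 windows with a match are printed on the gene's strand from 5′ to 3′, with the matching bases in capitals. Those of Th (chr1:207508219-207508468, minus strand) and Slc18a2 (chr1:268399771-268400020, plus strand) hold TGACGTCA, and the first of the 3 windows of Ddc (chr14:90682784-90683033, minus strand) holds TGACCTTT.
Th: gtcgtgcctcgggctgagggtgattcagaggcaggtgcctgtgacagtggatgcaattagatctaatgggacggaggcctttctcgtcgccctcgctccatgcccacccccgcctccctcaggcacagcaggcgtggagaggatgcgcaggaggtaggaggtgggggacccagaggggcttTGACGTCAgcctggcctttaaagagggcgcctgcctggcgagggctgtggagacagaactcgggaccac
Slc18a2: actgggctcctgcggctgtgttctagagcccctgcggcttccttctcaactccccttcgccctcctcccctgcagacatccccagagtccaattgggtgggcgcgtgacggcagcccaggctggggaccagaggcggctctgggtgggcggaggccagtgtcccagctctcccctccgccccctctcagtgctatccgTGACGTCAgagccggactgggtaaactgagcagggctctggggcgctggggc
Ddc: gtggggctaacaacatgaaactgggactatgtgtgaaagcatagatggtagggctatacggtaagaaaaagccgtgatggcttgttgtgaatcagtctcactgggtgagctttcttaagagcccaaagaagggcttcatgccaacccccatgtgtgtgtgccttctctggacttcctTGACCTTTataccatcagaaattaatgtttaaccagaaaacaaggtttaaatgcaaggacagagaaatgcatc
The match lies at bases -69 to -62 before the start in Th, -52 to -45 in Slc18a2 and -73 to -66 in Ddc. The windows of Slc6a3, Ret and Nr4a2 and the other windows of Ddc hold neither. Of 33469 rat promoter windows of the same length, 1.59% hold the first motif and 1.24% the second, in either orientation. A match is a description of letters and no evidence of binding.

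The first comparison asked where the members are expressed. Th, Slc6a3, Slc18a2, Ddc and Ret were higher in VTA than in either part of the NAc, by 20.7-fold for Ddc against the shell up to 2230-fold for Slc6a3 against the core. Nr4a2 did otherwise: it was lower in VTA than in NAc core and higher in VTA than in NAc shell. Against NAc core, 5 members were called higher and 1 lower, where 41.3% of all genes tested were called higher and 40.3% lower. Against NAc shell, all 6 were called higher, where 40.5% of all genes were called higher and 40.4% lower.

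Th, the rate-limiting enzyme, ranged in VTA from 18.0 CPM in female nicotine 2 to 895 CPM, with a median of 710 CPM over 31 libraries. In NAc core it lay between 0.763 and 3.87 CPM with a median of 1.63 CPM, and in NAc shell between 0.739 and 3.68 CPM with a median of 2.17 CPM. No VTA library overlapped with an analysed NAc library. The log2 fold change was 8.52 (SE 0.189, adjusted p = 2.99e-58, edgeR) against the core and 8.24 (SE 0.180, adjusted p = 1.26e-58, edgeR) against the shell.

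Slc6a3 is among the genes most restricted to dopamine neurons, and its VTA median was 859 CPM (22.8 to 1198 CPM). In NAc it had at most 26 reads in a library. Its NAc levels lay between 0 and 1.143 CPM, with 3 reads or fewer in 16 of 63 libraries and none in 1. The SE of its NIC against SAL comparisons in NAc was 0.431 to 0.593 on the log2 scale, so small differences were not detectable there at this depth. The log2 fold change was 11.12 (SE 0.217, adjusted p = 3.40e-62, edgeR) against the core and 10.94 (SE 0.206, adjusted p = 2.05e-63, edgeR) against the shell.

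Ddc was the least restricted to VTA of these 5 genes, by its fold change. Its VTA median was 238 CPM (19.4 to 317 CPM), against 9.81 CPM (7.44 to 12.7 CPM) in NAc core and 11.0 CPM (7.74 to 15.0 CPM) in NAc shell. Even female VTA nicotine 2, the lowest VTA library, was above every analysed NAc library. Ret had a VTA median of 231 CPM (34.9 to 287 CPM), a core median of 3.58 CPM (1.84 to 7.51 CPM) and a shell median of 4.35 CPM (2.32 to 15.0 CPM), again without overlap. The log2 fold changes of VTA over core were 4.51 (SE 0.110) for Ddc and 5.78 (SE 0.136) for Ret, with adjusted p = 4.58e-55 and 3.29e-56 (edgeR).

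Slc18a2 ranged in VTA from 6.78 to 261 CPM with a median of 198 CPM. In NAc core its median was 0.141 CPM, with no read in 8 of 31 libraries, and in NAc shell it was 1.24 CPM with a highest value of 12.7 CPM. The VTA and shell ranges overlapped, and without female VTA nicotine 2 they did not, since the next lowest VTA library had 101 CPM. VTA exceeded the core by 9.40 on the log2 scale (SE 0.291) and the shell by 6.78 (SE 0.228), with adjusted p = 1.18e-47 and 4.84e-45 (edgeR).

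Nr4a2 had medians of 29.5 CPM in VTA (16.2 to 45.9 CPM), 56.8 CPM in NAc core (14.1 to 89.6 CPM) and 12.7 CPM in NAc shell (4.06 to 49.0 CPM). The ranges of the regions overlapped, and most core libraries were above most VTA libraries. VTA against core gave a log2 fold change of -0.85 (SE 0.152, adjusted p = 4.56e-07, edgeR) and VTA against shell 1.04 (SE 0.154, adjusted p = 3.43e-09, edgeR).

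Leaving out female VTA nicotine 2 moved no log2 fold change of the region comparisons by more than 0.05, and with the rat as a block every call was kept. Every call was also kept without both NAc libraries of male saline 1, where the log2 fold change of Slc6a3 against the core was 11.23 (SE 0.219) and that of Nr4a2 was -0.83 (SE 0.154). The contrast of shell and core was added after the levels were seen. In it Slc18a2 was 6.14-fold higher in the shell (log2 2.62, SE 0.425, adjusted p = 4.93e-07, edgeR), Ret was 1.34-fold higher (log2 0.42, SE 0.134, adjusted p = 0.00960, edgeR) and Nr4a2 was 3.72-fold lower (log2 -1.89, SE 0.156, adjusted p = 1.20e-17, edgeR). Without both NAc libraries of male saline 1 these were 2.62, 0.46 and -1.89. Among all genes, 16.5% were called higher and 15.8% lower in that contrast. Th (log2 0.28), Slc6a3 (0.19) and Ddc (0.14) did not pass the test there.

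**Figure D1:**
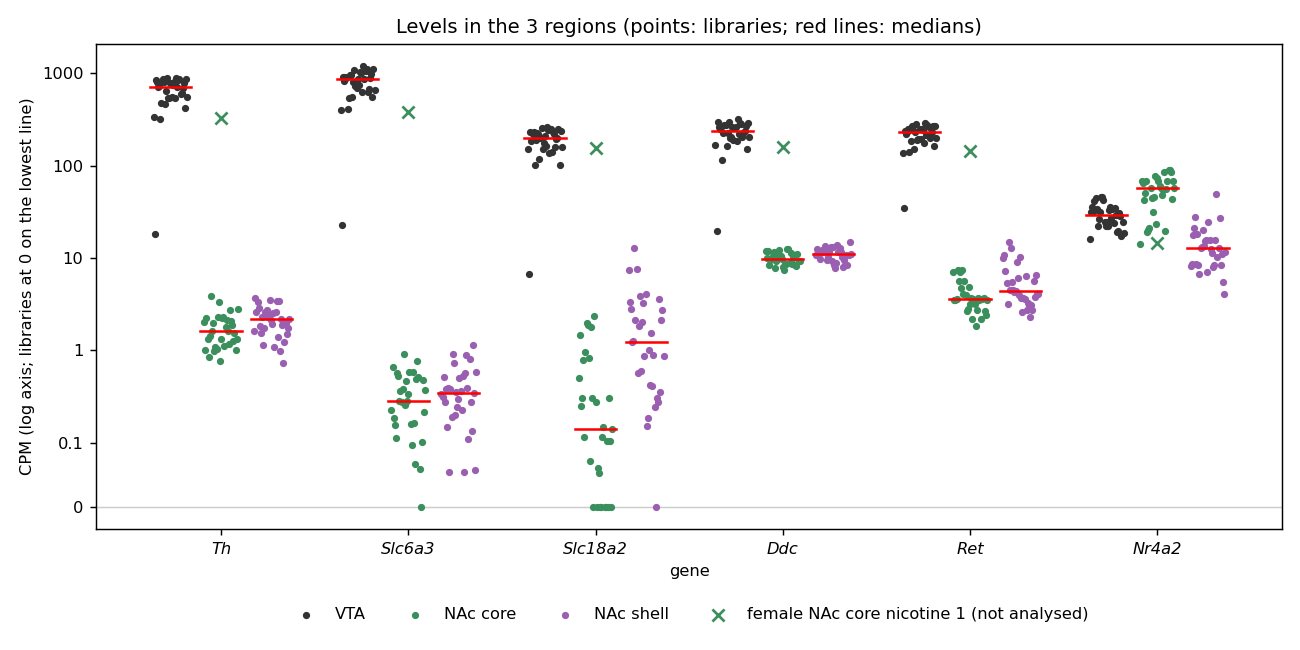
CPM (log axis) of the 6 genes in every analysed library of VTA, NAc core and NAc shell, with red lines at the medians, libraries at 0 on the lowest line and a cross for female NAc core nicotine 1, which was not analysed. Th, Slc6a3, Ddc and Ret separate VTA from NAc in all analysed libraries, Slc18a2 in all but female VTA nicotine 2, and Nr4a2 is highest in NAc core, with a median of 56.8 CPM.

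Other genes of the pathway were described from lists by role, for the members of each list that carry a symbol here. Their counts are read against the 41.3% of all genes that were called higher and the 40.3% called lower in VTA against the core, and the 40.5% and 40.4% against the shell. Of 5 enzymes of cofactor synthesis and amine breakdown, all 5 were called higher in VTA than in both parts of the NAc, with a median log2 fold change of 1.31 against the core (all genes: 0.01). Gch1, the entry enzyme of the synthesis of tetrahydrobiopterin, the cofactor of Th, was higher by 5.08 (SE 0.183), and Qdpr, which recycles that cofactor, by 1.31 (SE 0.058). All 6 transcription factors of midbrain dopamine neurons were called higher, with a median of 6.94 against the core. Foxa2, at 0 (SE 0) between shell and core, could pass the filter on low counts only through VTA. Its call was thus fixed by the filter, and the median includes it. En2 also had few NAc reads, with an SE of 2.66 for NIC against SAL in male shell. Which list genes pass on the NAc libraries alone is not given here. Pitx3 was higher by 7.04 (SE 0.244), Lmx1a by 6.83 (SE 0.266), En2 by 9.29 (SE 0.291) and Ebf3 by 5.35 (SE 0.162). Of 4 ligands and receptors of the GDNF family, which signal through Ret, 2 were called higher and 2 lower: the co-receptor Gfra2 was higher by 0.92 (SE 0.088) and the ligand Pspn lower, at -0.63 (SE 0.104). Of 7 other genes of dopamine neurons, 4 were called higher in VTA than in the core and 3 lower. Sncg (2.47), Dlk1 (5.83), Ntsr1 (4.12) and Gucy2c (4.55) were the higher ones, and the dopamine receptor Drd2 (-0.80), the peptide Cck (-1.25) and the calcium buffer Calb1 (-0.84), which NAc neurons express too, were lower. Against the shell, 4 of the 7 were called higher and 1 (Cck) lower.

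The second comparison asked whether the members differed between NIC and SAL rats about 2 weeks after the last injection. No member had an adjusted p under 0.05 in any of the 6 comparisons of sex and region, and nor did any other gene (0 of 16879 or 0% in each, edgeR). DESeq2 called 0 to 9 genes at an adjusted p under 0.05, none of them a member. At an unadjusted p under 0.05, 1 member was called in male VTA (Nr4a2, higher), where 5.62% of all genes were called and 2.35% were called higher, and none was called in female VTA, where 9.24% were. In NAc, 1 member was called in female shell (Slc18a2, higher), where 10.1% of all genes were called and 5.25% were called higher, and none in male core (9.83%), male shell (2.46%) or female core (6.45%).

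In male VTA all 6 members had a higher mean in NIC than in SAL rats, with a median log2 fold change of 0.19 (all genes: 0.00). Th ranged from 417 to 861 CPM with a median of 611 CPM over 7 SAL rats, and from 546 to 895 CPM with a median of 773 CPM over 8 NIC rats. The groups overlapped over most of their range, with 2 NIC rats above the highest SAL rat. The means were 646 CPM ± 149 (SD, n = 7) and 746 CPM ± 134 (SD, n = 8), and the log2 fold change was 0.21 (SE 0.142). The unadjusted p was 0.154 by edgeR's quasi-likelihood test and 0.194 by the two-sided exact permutation test of log2 CPM. Slc6a3 lay between 554 and 1119 CPM in SAL rats (median 684 CPM) and between 623 and 1198 CPM in NIC rats (median 1011 CPM), with 7 of 8 NIC rats above the SAL median. Its log2 fold change was 0.28 (SE 0.158, exact permutation p = 0.130, adjusted p = 0.866 by edgeR). Its unadjusted p by edgeR was 0.0245 without saline 7 and 0.0322 without nicotine 13.

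Slc18a2 (0.15, SE 0.183), Ddc (0.16, SE 0.134) and Ret (0.10, SE 0.119) were nearer to 0 on the log2 scale. Their mean levels in SAL and NIC rats were 185 and 205 CPM for Slc18a2, 225 and 251 CPM for Ddc, and 222 and 237 CPM for Ret. For each of these the NIC and SAL ranges overlapped, with 5 of 8 NIC rats above the SAL median. Saline 6 was the lowest SAL library for these genes, and without it the values were 0.044 for Slc18a2, 0.081 for Ddc and 0.037 for Ret, with 0.13 for Th and 0.21 for Slc6a3.

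Nr4a2 differed most. In SAL rats it ranged from 17.1 to 31.004 CPM with a median of 19.8 CPM, and in NIC rats from 22.4 to 35.8 CPM with a median of 31.3 CPM. The groups overlapped, but all 8 NIC rats were above the SAL median and 4 were above the highest SAL rat. The means were 22.7 CPM ± 5.44 (SD, n = 7) and 30.1 CPM ± 5.22 (SD, n = 8), a 1.33-fold difference (log2 0.41, SE 0.143). The exact permutation p was 0.0210 and edgeR's unadjusted p was 0.0111, but the adjusted p over all genes was 0.866. The unadjusted p stayed under 0.05 when any single rat was left out (0.00204 to 0.0298) and was 0.198 when all 12 groups shared a fit.

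The prep batch bears on these values. With prep batch as a covariate the male log2 fold changes were -0.05 (SE 0.300) for Th, 0.00 (SE 0.329) for Slc6a3, 0.05 (SE 0.387) for Slc18a2, -0.09 (SE 0.283) for Ddc and -0.06 (SE 0.254) for Ret. Of these, Th, Ddc and Ret changed sign, while Nr4a2 stayed at 0.45 (SE 0.313, unadjusted p = 0.171 by edgeR). Within the single batch with both treatments, 2 NIC and 2 SAL rats, mean Th was 675 and 710 CPM, and mean Nr4a2 was 29.1 and 21.7 CPM. Other marker lists also moved between the male VTA groups: the summed level of 7 oligodendrocyte genes was 29840 to 42797 CPM in NIC rats and 33733 to 47570 CPM in SAL rats, with 3 of the 7 lower at an unadjusted p under 0.05 (all genes: 3.28%). At that level the hypothalamic gene Pomc (1.35) and the striatal gene Pdyn (0.40) were higher. The astrocyte gene Slc1a2 (-0.33) and Slc17a8 (-1.60), of the glutamatergic and GABAergic list, were lower, where 5.62% of all genes were called in either direction. The part of tissue composition in the differences of the members was not tested.

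In female VTA all 6 members had a lower mean in NIC than in SAL rats, with a median log2 fold change of -0.30 (all genes: 0.02). Th ranged from 462 to 881 CPM in SAL rats (median 713 CPM) and from 18.0 to 844 CPM in NIC rats (median 596 CPM). No NIC rat was above the highest SAL rat, and 3 NIC rats, nicotine 1, 2 and 7, were below the lowest SAL rat. The means were 690 CPM ± 163 (SD, n = 8) and 531 CPM ± 292 (SD, n = 8). The log2 fold change was -0.38 (SE 0.435, adjusted p = 0.816 by edgeR), and without nicotine 2 it was -0.20 (SE 0.217). The difference in mean log2 CPM, which the permutation tested, was -0.87 (exact permutation p = 0.164). Without nicotine 2 that difference was -0.25 (exact permutation p = 0.330).

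Slc6a3 was at -0.44 (SE 0.421) with all rats and -0.25 (SE 0.196) without nicotine 2. Ret, at -0.34 (SE 0.270) and -0.18 (SE 0.1497), had 1 of 8 NIC rats above the SAL median. Slc18a2 went from -0.25 to -0.07 and Ddc from -0.25 to -0.08 when nicotine 2 was left out. Nr4a2 was at -0.04 (SE 0.202), with levels of 22.1 to 45.9 CPM in SAL rats and 16.2 to 44.8 CPM in NIC rats, and it kept this level in nicotine 2 (31.4 CPM). None of these differences exceeded the spread between rats. Within prep batch, mean Th was 399 and 822 CPM in the 2 NIC and 2 SAL rats of batch J, and 844 and 761 CPM in 1 NIC and 2 SAL rats of batch L. Slc6a3 (477 and 912 CPM in J, 922 and 936 CPM in L) and Ret (163 and 258 CPM in J, 239 and 259 CPM in L) had a lower NIC mean in both batches. Some markers of other cells also had an unadjusted p under 0.05 in female VTA, where 9.24% of all genes had: 2 of 4 hypothalamic genes were higher (Pmch, 3.70, and Hcrt, 3.69), as were 1 of 7 genes of glutamatergic and GABAergic midbrain neurons (Sst, 0.56) and 1 of 7 striatal genes (Tac1, 0.54). Of 5 astrocyte genes 1 was lower (Gfap, -0.42) and 1 higher (Slc1a2, 0.26), and 1 of 4 microglial genes was lower (Csf1r, -0.21). Gata2, of the noradrenergic and serotonergic list, was lower (-0.26). Their part in the values of the members was not tested.

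**Figure D2:**
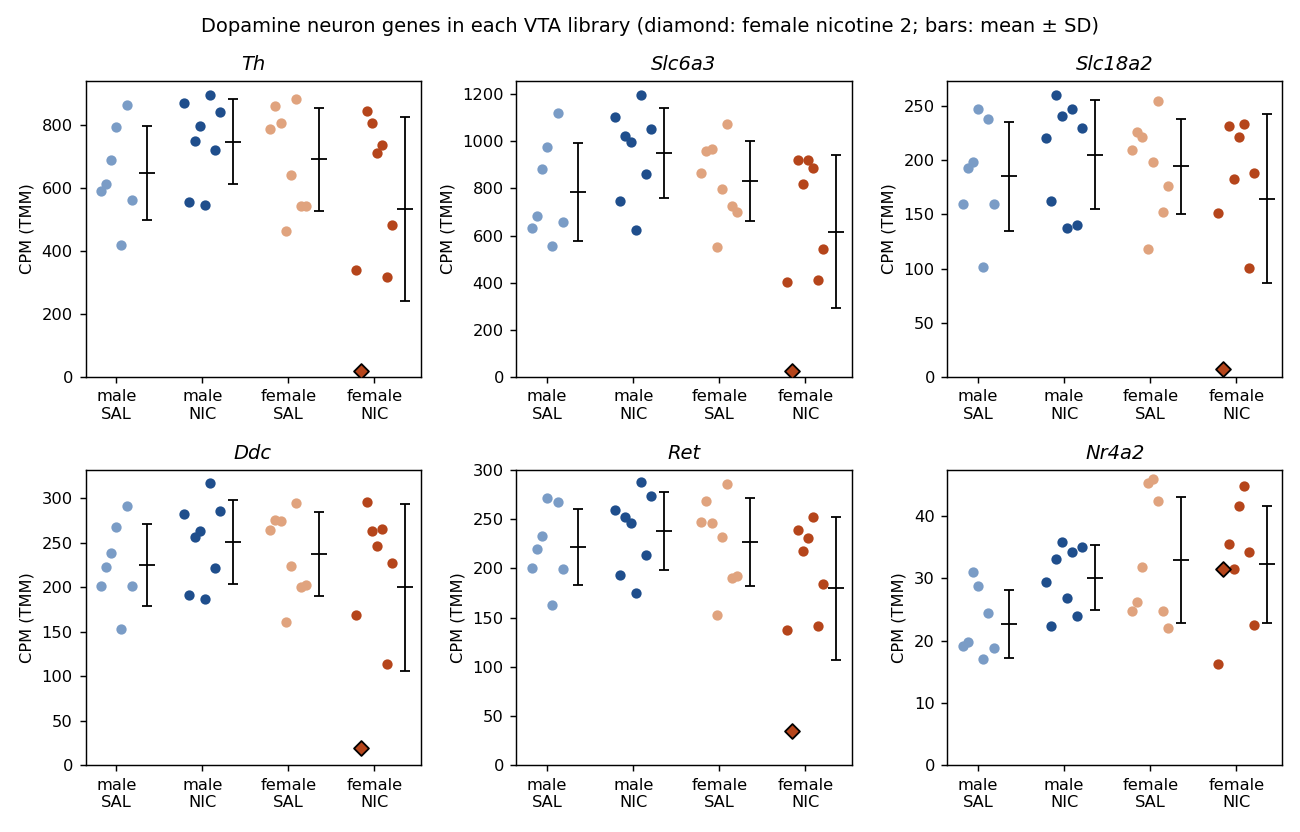
CPM of each gene in each of 31 VTA libraries by sex and treatment, with mean ± SD beside the points and a diamond for female nicotine 2. The groups overlap for every gene, female nicotine 2 is near the bottom for all genes but Nr4a2, and Nr4a2 in male NIC rats (22.4 to 35.8 CPM) lies above the male SAL median of 19.8 CPM.

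The pathway lists were counted in the same way. In male VTA, 1 of 6 transcription factors (Lmx1a, 0.60, SE 0.255) and 1 of 7 other dopamine neuron genes (Cck, 0.37, SE 0.153) were higher at an unadjusted p under 0.05 (all genes: 2.35% higher), and none of the 5 enzymes or 4 GDNF family genes. The median log2 fold change of the transcription factors was 0.18 and that of the other dopamine neuron genes 0.20. In female VTA no enzyme, transcription factor or other dopamine neuron gene passed at that level. Of the 4 GDNF family genes 1 did, the ligand Pspn, which was lower in NIC rats (-0.52, SE 0.173, unadjusted p = 0.00777 by edgeR), where 9.24% of all genes were called in either direction.

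The change was then compared between the sexes. For the interaction of sex and treatment in VTA, the log2 difference (female minus male) was negative for all 6 members, from -0.71 (SE 0.483) for Slc6a3 to -0.40 (SE 0.470) for Slc18a2. None had an unadjusted p under 0.05 (0.102 for Nr4a2 was the smallest, edgeR, and it was 0.0470 without male saline 4), where 11% of all genes had, and no gene had an adjusted p under 0.05 (0%, edgeR; 2 genes by DESeq2, neither a member). Without female nicotine 2 the value for Slc6a3 was -0.54 (SE 0.267, unadjusted p = 0.0522 by edgeR), and the other 5 lay between -0.45 for Nr4a2 and -0.23 for Slc18a2. Irrespective of treatment, female VTA had 1.24-fold more Nr4a2 than male VTA (log2 0.31, SE 0.131, unadjusted p = 0.0223, adjusted p = 0.179, edgeR), where 10.2% of all genes were higher at an unadjusted p under 0.05 and 2.36% were called in either direction at an adjusted one, with means of 32.5 CPM ± 9.40 (SD, n = 16) and 26.7 CPM ± 6.39 (SD, n = 15). The other 5 members lay between -0.27 and -0.12 and had no unadjusted p under 0.05. Without female nicotine 2, Th was at -0.10, Slc6a3 at -0.18, Slc18a2 at -0.035, Ddc at -0.039 and Ret at -0.11, and Nr4a2 at 0.31. Sex and prep batch cannot be told apart for nearly all of these libraries.

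**Figure D3:**
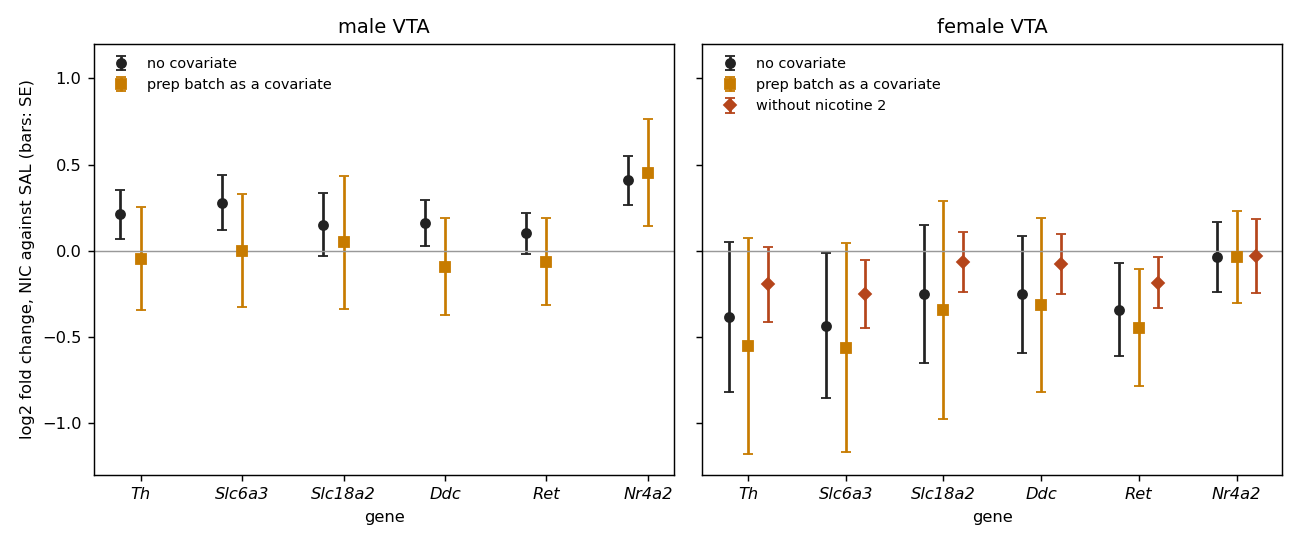
Log2 fold change of NIC against SAL with SE bars in male and female VTA, from edgeR without a covariate, with prep batch as a covariate and, in females, without nicotine 2. The 6 male values lie above 0 without a covariate (0.10 to 0.41), and 3 of them lie below 0 with prep batch as a covariate. The female values move towards 0 without nicotine 2.

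The third comparison asked whether the members vary together between rats. Over 31 VTA libraries, with log2 CPM centred within sex and treatment, the 10 pairs among Th, Slc6a3, Slc18a2, Ddc and Ret had Pearson's r from 0.972 (Slc18a2 and Ret) to 0.994 (Th and Slc6a3), and Spearman's rho from 0.904 to 0.979. Each permutation p was 1e-05, the smallest that the 100000 resamples can give (1.5e-05 after Benjamini-Hochberg adjustment over the 15 pairs). After the 2 rats farthest from the median of the first gene were left out, r was 0.891 to 0.971. Without female nicotine 2 it was 0.857 to 0.964, and centred within sex and prep batch 0.956 to 0.992.

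Some ratios of these genes varied far less than their levels, and others did not. Th spanned a 49.3-fold range over the 31 libraries and a 2.83-fold range without female nicotine 2, while the ratio of Th to Slc6a3 spanned 1.35-fold in both cases. The SD of log2 CPM over the 30 libraries was 0.41 for Th and for Slc6a3, 0.39 for Slc18a2, 0.34 for Ddc and 0.30 for Ret, and that of the log2 ratio of Th to Slc6a3 was 0.11. The ratios of Ddc to Ret (0.12) and Th to Ddc (0.14) were also tight. Those of Th to Slc18a2 (0.22) and Slc6a3 to Slc18a2 (0.23) were wider, and spanned 2.29-fold and 2.28-fold where the level of Slc18a2 spanned 2.59-fold. Over all 31 libraries the ratio of Th to Ret spanned 7.14-fold, against 8.22-fold for Ret itself. For 31 libraries the corresponding SD was 1.01 for Th and 0.56 for Ret.

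Nr4a2 did not share this pattern to the same degree. Its r with the other members lay between 0.156 (with Slc18a2 and with Ddc) and 0.264 (with Ret), with adjusted permutation p from 0.348 to 0.500. Spearman's rho was 0.329 to 0.451, and passed the adjusted threshold with Slc6a3 (adjusted permutation p = 0.0176) and with Ret (0.0207). Without female nicotine 2, r was 0.353 to 0.544 and passed in 4 of 5 pairs, with Ddc as the exception (adjusted permutation p = 0.103). Centred within sex and prep batch, r with all rats was -0.291 to -0.184. Centred in the same way without female nicotine 2 it was 0.088 to 0.236 (adjusted permutation p from 0.465 to 0.723), so that the sign turned with this library and no pair passed within prep batch. The SD of the log2 ratio of Th to Nr4a2 was 0.45 over 30 libraries, against 0.43 for Nr4a2 itself.

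The ratio of a pair of members in each library was also compared between NIC and SAL rats, with no term for prep batch. Of 15 ratios in male VTA, 5 had an unadjusted exact permutation p under 0.05, and none passed after adjustment over the 15. The ratio of Ret to Nr4a2 was lower in NIC rats by -0.32 on the log2 scale (exact permutation p = 0.00637, adjusted 0.0956), and that of Slc6a3 to Ret was higher by 0.19 (exact permutation p = 0.0129, adjusted 0.0962). In female VTA without nicotine 2, 2 of 15 had an unadjusted p under 0.05, the ratios of Slc6a3 to Slc18a2 (-0.23, exact permutation p = 0.0371) and of Slc6a3 to Ddc (-0.19, exact permutation p = 0.0471), with an adjusted p of 0.353 for both. The ratio of Slc6a3 to Ddc was thus higher in male NIC rats (0.13, exact permutation p = 0.0396) and lower in female ones, a difference between sexes that was not tested.

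**Figure D4:**
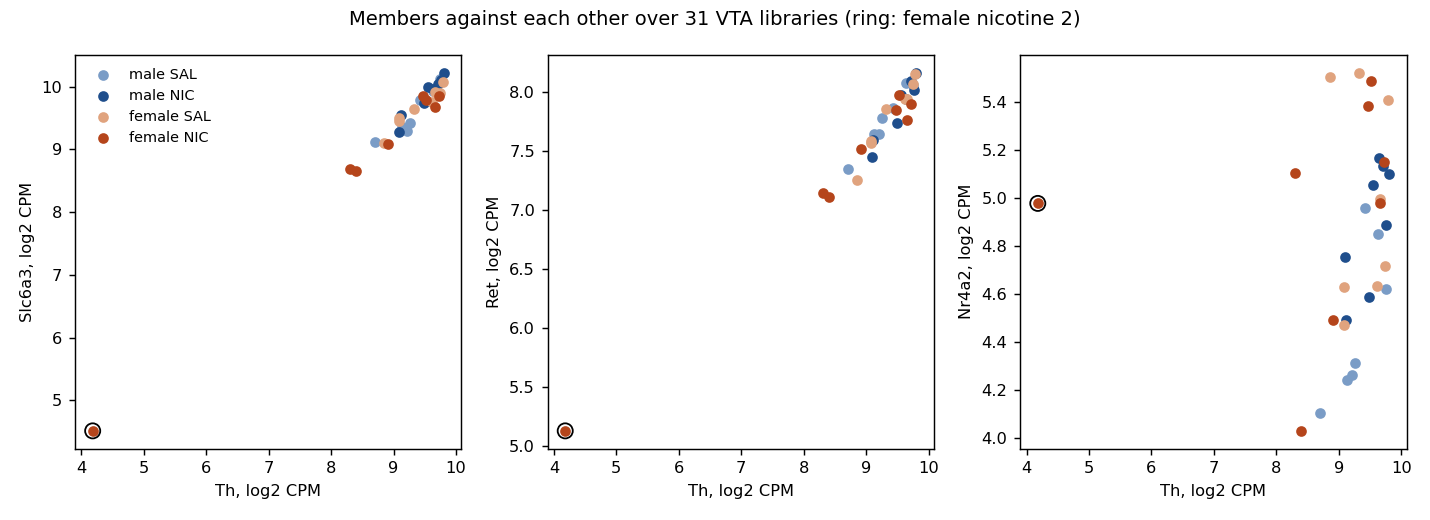
Log2 CPM of Slc6a3, Ret and Nr4a2 (vertical axes) against Th (horizontal axes) over 31 VTA libraries coloured by sex and treatment, with a ring around female nicotine 2. Slc6a3 (r = 0.994) and Ret (r = 0.978) lie along a line with Th after centring within groups, whereas Nr4a2 (r = 0.182) is scattered.

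Of 14432 genes with at least 1 CPM in VTA, the 5 named non-members whose levels followed the mean standardized level of the members most closely were Drd2 (Spearman's rho = 0.916), Ntsr1 (0.902), Cadps2 and Atp2a3 (0.881 each) and Pitx3 (0.871), over 31 libraries centred within sex and treatment. Drd2 encodes the autoreceptor of dopamine neurons, Ntsr1 a neurotensin receptor, Cadps2 a protein of vesicle release, Atp2a3 a calcium pump of the endoplasmic reticulum, and Pitx3 a transcription factor of midbrain dopamine neurons. Among the members, rho was 0.865 to 0.941 for the 5 that varied together and 0.667 for Nr4a2, in each case with the gene itself in the mean. Without female nicotine 2, the rho of the 5 named genes was 0.820 to 0.927. Genes without a symbol were ranked but cannot be named, and the points share prep batches.

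Th was also set against the summed level of 13 lists of other genes in VTA. It followed the 7 other dopamine neuron genes (r = 0.889, rho = 0.917, permutation p = 1e-05 for both, the smallest possible, adjusted 0.00013; r = 0.924 without nicotine 2) and the 6 transcription factors (r = 0.705, rho = 0.685, adjusted permutation p of r = 0.00026; r = 0.666 without nicotine 2). Leaving out the 2 farthest rats gave r = 0.861 and 0.672, and centring within sex and prep batch 0.770 and 0.425. The other pathway lists did not pass. For the enzymes of cofactor synthesis and amine breakdown r was 0.388 (adjusted permutation p = 0.193), and 0.073 without nicotine 2. For the GDNF family genes r was 0.118 (adjusted permutation p = 0.899), and -0.142 without nicotine 2. The r with astrocyte genes was 0.653 (rho = 0.467, adjusted permutation p of r = 0.00602) and with microglial genes 0.771 (rho = 0.421, adjusted permutation p of r = 0.00985). Without nicotine 2 these were 0.433 and 0.420, and their adjusted permutation p was 0.0822 and 0.125. Centred within sex and prep batch, r was 0.662 with astrocyte genes, 0.775 with microglial genes and 0.634 with oligodendrocyte genes (0.561, 0.565 and 0.430 without nicotine 2). In the same way it was -0.718 with Nrgn, the cortical gene, -0.463 with striatal genes and -0.388 with hypothalamic genes (-0.262, -0.080 and -0.635 without nicotine 2). With genes of glutamatergic and GABAergic midbrain neurons r was -0.0045 (0.091 without nicotine 2). With 5 pan-neuronal genes it was -0.08, and without nicotine 2 it was 0.367 (rho = 0.361, adjusted permutation p of r = 0.125).

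Female VTA nicotine 2 was lower than the median of the other 7 female NIC rats by 39.4-fold for Th, 36.01-fold for Slc6a3, 27.7-fold for Slc18a2, 12.7-fold for Ddc and 6.24-fold for Ret. Nr4a2 was lower by 1.09-fold only. Its members still lay above every analysed NAc library for Th, Slc6a3, Ddc and Ret, and its Drd2 level was 21.0 CPM. Markers of other cells moved too. Nrgn, a gene of cortical and other forebrain neurons and the sole symbol-bearing gene of the cortical list, stood at 1175 CPM in this library, against 156 to 484 CPM in female SAL rats and 124 to 366 CPM in male SAL rats. Its 7 oligodendrocyte genes summed to 23522 CPM, the lowest of the female VTA NIC group, and its 7 striatal genes to 241 CPM, against 137 to 246 CPM in the group. What part of the tissue it holds was not tested.

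Female VTA nicotine 1 and 7, with Th at 337 and 316 CPM, were the next lowest VTA libraries. Nicotine 7 had 192 CPM of Pmch, a peptide gene of the lateral hypothalamus, where the SAL rats of the group had 1.39 to 2.90 CPM. Its Hcrt level, another such gene, was 11.5 CPM, against at most 0.313 CPM in the female SAL rats. Whether neighbouring tissue lowered the members in this library was not tested.

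Female NAc core nicotine 1, the library left out, had member levels near those of VTA of the same rat: 331 and 337 CPM for Th, 385 and 404 CPM for Slc6a3, 156 and 151 CPM for Slc18a2, 161 and 169 CPM for Ddc, 142 and 138 CPM for Ret, and 14.6 and 16.2 CPM for Nr4a2. Its 7 striatal genes summed to 158 CPM, against 2193 to 4676 CPM in the other female NAc core NIC libraries. Over all genes the pair differed by a chi-square of 10.3 for each degree of freedom, under the 12.8 to 99.4 found between VTA libraries of different female NIC rats and above the 3.06 found between both runs of male VTA saline 5. With it included, the log2 fold change of Slc6a3 in female NAc core went from -0.18 to 6.92 (unadjusted p = 0.00159, adjusted p = 0.585, edgeR).

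In the accumbens the members were compared as background. In male NAc core Slc18a2 had 3 reads or fewer in 14 of 16 libraries, too few for a direction to be read. Th showed no difference past the spread in any NAc comparison: its log2 fold change was -0.10 (SE 0.237) in male core, 0.15 (SE 0.353) in female core, 0.36 (SE 0.289) in male shell and 0.11 (SE 0.221) in female shell. Ddc was within 0.05 of 0 in all 4 without a covariate. Nr4a2 was at -0.26 (SE 0.211) in male core, 0.22 (SE 0.337) in female core, 0.67 (SE 0.389) in male shell and 0.20 (SE 0.277) in female shell, and within the batch shared by both treatments in male shell (3 NIC, 2 SAL rats) its means were 25.8 and 7.85 CPM. That NIC mean includes nicotine 9, the highest shell library at 49.0 CPM, and without nicotine 9 the male shell value of Nr4a2 was 0.27. Without saline 3 it was 0.99 (unadjusted p = 0.0143 by edgeR), the single one of the 16 fits that left out a rat with an unadjusted p under 0.05. In the same batch Th had means of 1.54 (NIC) and 1.98 CPM (SAL) and Ddc of 8.94 and 13.1 CPM, and with prep batch as a covariate the male shell values were -0.37 for Th and -0.56 for Ddc. With a rat left out, Nr4a2 ranged from -0.35 to -0.13 in male core, 0.10 to 0.43 in female core and 0.0052 to 0.31 in female shell. Th ranged from 0.24 to 0.47 in male shell and 0.0049 to 0.22 in female shell.

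Female NAc shell held the most Slc18a2 of the accumbens groups. In its SAL rats Slc18a2 ranged from 0.576 to 4.08 CPM (median 1.95 CPM) and in its NIC rats from 1.22 to 12.7 CPM (median 3.08 CPM), with 3 NIC rats above the highest SAL rat. The means were 2.14 CPM ± 1.44 (SD, n = 8) and 4.801 CPM ± 4.06 (SD, n = 8), and the log2 fold change was 1.19 (SE 0.509, exact permutation p = 0.100, unadjusted p = 0.0306 and adjusted p = 0.473 by edgeR). Without nicotine 6 it was 0.80, and 10 of the 16 fits that left out a rat had an unadjusted p under 0.05. In prep batch J the means were 4.83 CPM in 2 NIC and 2.33 CPM in 2 SAL rats. In male shell the value was -1.08 (SE 0.690) by edgeR, and with a rat left out it ranged from -1.43 (without nicotine 14) to -0.65 (without saline 4). The unadjusted p by edgeR then ranged from 0.0538 (without saline 1) to 0.363. The difference in mean log2 CPM, which the permutation tested, was smaller, at -0.47 (exact permutation p = 0.527). The difference between the sexes was not tested. Ret was at 0.53 (SE 0.291) in female shell, with a median of 5.06 CPM in SAL rats and 8.66 CPM in NIC rats, and its means in batch J were 7.89 and 8.72 CPM. With a rat left out it ranged from 0.37 (without nicotine 6) to 0.68 (without saline 9), and 4 of the 16 fits had an unadjusted p under 0.05. All 7 striatal projection neuron genes were lower in these NIC rats at an unadjusted p under 0.05 (median log2 -0.38; all genes 4.88% lower), and markers of other cells were higher: 2 of 7 oligodendrocyte genes (Mag, 0.30, and Cldn11, 0.29), 2 of 7 genes of glutamatergic and GABAergic midbrain neurons (Slc17a6, 1.00, and Crh, 0.52) and 2 of 4 hypothalamic genes (Avp, 3.75, and Hcrt, 1.49), where 5.25% of all genes were higher. Pathway genes also moved at an unadjusted p under 0.05. Gfra2 (0.56), Dlk1 (0.90), Ebf3 (0.95) and Pcbd1 (0.47) were higher and Drd2 (-0.25) was lower. Of the pan-neuronal list Stmn2 (0.16) was higher and Rbfox3 (-0.30) lower, and Gata2 was lower (-0.27). All 7 striatal genes are named in the study's own lists of sensitization genes, drawn from these samples, which can raise their count. The part of other cells in the Slc18a2 and Ret values was not tested.

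The pairs of members were also correlated in NAc, a step added after the levels were seen. Over 32 shell libraries centred within sex and treatment, Slc18a2 and Ret had r = 0.733 and rho = 0.761 (permutation p = 1e-05 for both, adjusted 0.00015), r = 0.711 without the 2 farthest rats and 0.765 within prep batch. Slc18a2 and Ddc (r = 0.528, adjusted permutation p = 0.0107) and Ddc and Ret (r = 0.432, adjusted permutation p = 0.0141) passed as well with all rats, but not within prep batch (adjusted permutation p = 0.0591 and 0.0553). Slc18a2 and Th had r = -0.058 (adjusted permutation p = 0.874). Slc18a2, Ddc and Ret were each related to Nr4a2 with a negative sign, at r = -0.577, -0.575 and -0.619 (adjusted permutation p = 0.00514, 0.00514 and 0.00158), and centred within prep batch r was -0.527, -0.558 and -0.532, where none of the 3 passed (adjusted permutation p = 0.0591, 0.0776 and 0.0528). Without male saline 1, r was 0.719 for Slc18a2 and Ret, 0.021 for Slc18a2 and Th, and -0.643, -0.592 and -0.636 for Slc18a2, Ddc and Ret with Nr4a2. Within prep batch and without that library, Slc18a2 and Ret passed with Nr4a2 (adjusted permutation p = 0.0255 for both) and Ddc did not (0.0556). Slc18a2 and Slc6a3 had r = -0.321 with all rats (adjusted permutation p = 0.2004) and r = -0.504 without male saline 1, where the pair passed (adjusted permutation p = 0.0197), as did Slc6a3 and Ret (r = -0.470, adjusted permutation p = 0.0171). In VTA the same pair had a positive r, and the difference between the regions was not itself tested. In NAc core none of the 15 pairs passed after adjustment, with or without male saline 1, and Slc18a2 and Ret had r = 0.284.

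**Figure D5:**
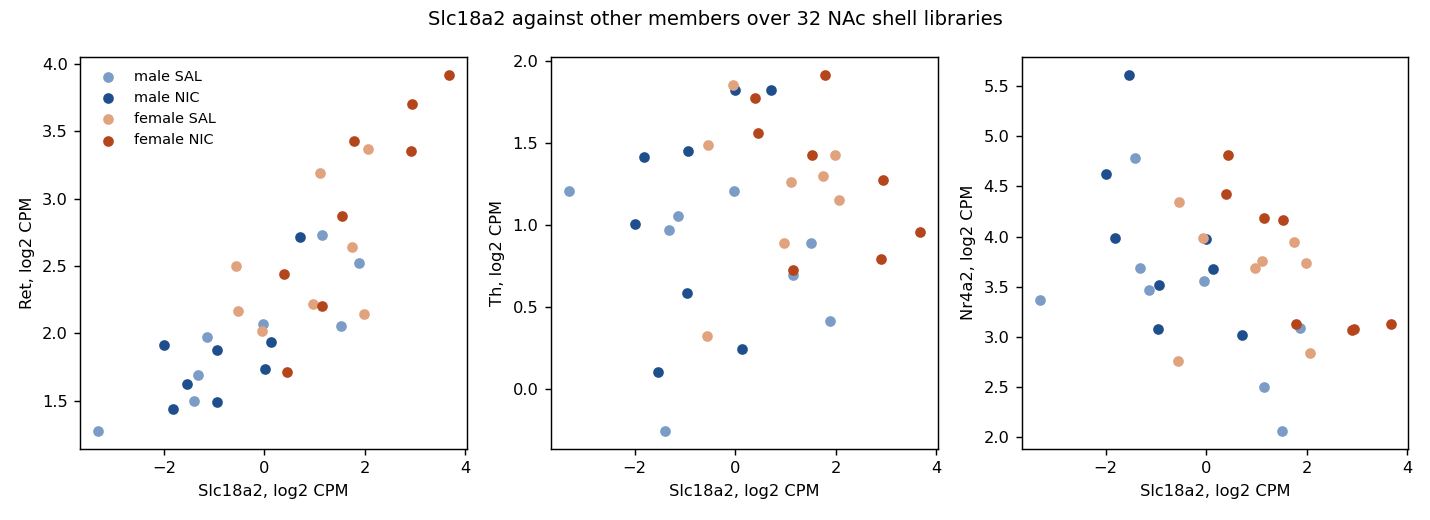
Log2 CPM of Ret, Th and Nr4a2 (vertical axes) against Slc18a2 (horizontal axes) over 32 NAc shell libraries coloured by sex and treatment. After centring within groups r was 0.733 with Ret, -0.058 with Th and -0.577 with Nr4a2, and the 3 libraries with the most Slc18a2 are female NIC rats.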

How the data were processed

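Total RNA of each dissected region had been sequenced as paired reads. The authors trimmed reads with fastp 0.20.0, quantified them with Salmon 0.12.0 against Rnor 6 transcripts and summed them to genes with tximport, and the deposited table holds these estimated counts, unnormalized, for 96 libraries and 17637 genes. Gene symbols, for 7964 genes, come from tables of the study. The 94 libraries displayed in the study were analysed. The extra run of a library sequenced more than once and female NAc core nicotine 1 were left out.

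Genes with a count over 10 after size factors in at least 3 libraries were tested with edgeR 4.0.16 (TMM, quasi-likelihood F-test, R 4.3.3), NIC against SAL within each sex and region, and regions as contrasts of the mean of their 4 groups in a single fit of all 12. SE was computed from the log2 fold change and F. Log2 CPM used a prior count of 2. Exact permutation tests were two-sided, and correlations were permuted 100000 times within sex and treatment. DESeq2 1.42.0, other filters and fits with prep batch, the rat as a block or a rat left out were alternatives. The test was checked on simulated counts. Each rat is a replicate.

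The members and gene lists were chosen with earlier results of these data known. Named genes were the members, up to 4 genes of each list with the highest mean level in VTA, and the 5 genes with a symbol most like the members in VTA. Gch1, Foxa2, Calb1, Gucy2c, Mag, Crh, Slc1a2, Pcbd1, Pdyn, Pomc, Slc17a8, Stmn2 and Rbfox3 were named after their values were seen. Lists hold the genes with a symbol, and the tables that gave the symbols were partly chosen by the authors on these samples. That choice can raise the counts of list genes at an unadjusted p under 0.05 above the share over all genes. Deviations of the same rat in NAc core and NAc shell correlated with a median of 0.123, against -0.0103 for other rats. The regions of a block come from the same rat by the labels. Total counts limit precision for genes with few reads.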

Additional observations from a re-analysis of the deposited data

Results flagged for a closer look

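Within each group of 7 or 8 rats, a library was singled out where its gap to the nearest other rat exceeded Dixon's 95% limit for log2 CPM. This happened in 8 of 72 sets of a member and a group, and chance alone gives about 1 in 20. In the female VTA NIC group, nicotine 2 was far below the other 7 rats for 5 members, at 18.0 CPM for Th, 22.8 CPM for Slc6a3, 6.78 CPM for Slc18a2, 19.4 CPM for Ddc and 34.9 CPM for Ret. These 5 are a single library and do not count as separate events. Slc6a3 in female NAc core saline 14 was the highest of its group at 0.919 CPM. Ret in male NAc shell nicotine 14 was the highest of its group at 6.46 CPM. Nr4a2 in male NAc core nicotine 9 was the lowest of its group at 19.4 CPM.

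A signal also appeared in a library that no comparison used. Female NAc core nicotine 1 held 331 CPM of Th, 385 CPM of Slc6a3, 156 CPM of Slc18a2, 161 CPM of Ddc and 142 CPM of Ret, each above the highest of the other 31 NAc core libraries.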

How the results depend on the processing

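Counted were the members called at an adjusted p under 0.05 in the 11 comparisons, and the pairs of members that passed in VTA. These numbers stayed within 1.5 times their value in all 219 alternatives. Where no member was called, this means only that none was called in any alternative. Of 1296 alternative log2 fold changes, 1240 kept their direction. With prep batch as a covariate the sign turned, for NIC against SAL, in male VTA for Th (-0.046), Ddc (-0.092) and Ret (-0.063), in male NAc core for Slc6a3 (0.39), Slc18a2 (0.62), Ddc (-0.079) and Ret (0.10), in male NAc shell for Th (-0.37), Slc6a3 (-0.0021) and Ddc (-0.56), and in female NAc core for Slc6a3 (0.94). The r of Nr4a2 in VTA centred within prep batch was -0.29 with Th, -0.25 with Slc6a3, -0.26 with Slc18a2, -0.29 with Ddc and -0.18 with Ret, and without female VTA nicotine 2 all 5 were positive (0.088 to 0.236). With female NAc core nicotine 1 included, the values in female NAc core were 6.92 for Slc6a3, 4.11 for Slc18a2 and 1.49 for Ddc. When each rat was left out in turn, the value ranged from -0.11 to 0.061 for Nr4a2 in female VTA. In male NAc core it ranged from -0.19 to 0.014 for Th, -0.24 to 0.28 for Slc6a3, -0.62 to 0.58 for Slc18a2, -0.029 to 0.084 for Ddc and -0.12 to 0.018 for Ret. In female NAc core it ranged from -0.16 to 0.38 for Th, -0.41 to 0.11 for Slc6a3 and -0.059 to 0.043 for Ddc, and in male NAc shell from -0.22 to 0.41 for Slc6a3 and -0.016 to 0.14 for Ddc. The cause was not tested.

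Leaving out the NAc libraries of male saline 1 was chosen after seeing the data and changed no region call of a member. With the rat as a replicate block, every region call of a member was kept, and VTA against NAc core gave 8.48 for Th and -0.73 for Nr4a2. NIC and SAL rats share no replicate number within a sex, so those comparisons have no paired fit.

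The number of genes of all kinds at an unadjusted p under 0.05 moved more. With prep batch as a covariate it went from 415 to 2013 in male NAc shell, from 1559 to 295 in female VTA, from 1709 to 629 in female NAc shell and from 1853 to 462 for sex by treatment. All 12 groups in a single fit gave 743 in male NAc shell. With a rat left out it ranged from 676 to 1554 in male VTA (the highest without saline 4), 1046 to 1995 in male NAc core (the lowest without nicotine 9) and 299 to 831 in male NAc shell (831 without saline 1 and 636 without nicotine 14). For female against male VTA, 399 genes had an adjusted p under 0.05, 779 by DESeq2 and 6 with prep batch, and 246 without male saline 1, 255 without male saline 8, and 237, 253 and 252 without female saline 13, 14 and 15. Depth limits Slc6a3 and Slc18a2 in NAc, which had 3 reads or fewer in 16 and 19 of 63 libraries. Prep batch and treatment overlap in few libraries, so the fits with it have wide errors.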
